A study of Homo sapiens with 32 samples.

Results

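The mRNAs of 10 histone lysine demethylases that need molecular oxygen were measured: KDM2A, KDM2B, KDM3A, KDM3B, KDM4A, KDM4B, KDM4C, KDM5A, KDM5B and KDM6B. They were taken by symbol from the protein-coding rows of both deposited count tables, where they made up 10 of 19815 such rows, and all 10 were found with between 60 and 6699 counts in every library.

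These enzymes carry a JmjC domain, an iron-containing pocket that uses oxygen and 2-oxoglutarate to strip methyl groups from lysines of histone H3. KDM2A and KDM2B act on H3K36 and bind CpG-rich DNA, KDM3A and KDM3B act on mono- and dimethyl H3K9, KDM4A, KDM4B and KDM4C on trimethyl H3K9 and H3K36, KDM5A and KDM5B on H3K4, and KDM6B on H3K27, the mark laid down by EZH2. Several family genes, KDM3A and KDM4B above all, are known as targets of the hypoxia-inducible factors (HIFs), the transcription factors that accumulate when oxygen falls.

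RNA-Seq libraries of 2 established human breast lines were used, MCF10A (non-tumourigenic epithelial) and MDA-MB-231 (triple-negative carcinoma), with 16 libraries a line. Cells were kept in normoxia (N) or in 0.5% O2 for 24 hours (H), each without or with PP242, an inhibitor of both mTOR complexes, at 2.5 µM for 3 hours (NPP and HPP), and cells without PP242 received its vehicle DMSO. From each culture both total mRNA (T) and mRNA on polysomes (P, taken from a sucrose gradient) were sequenced, with 2 biological replicates for each of the 8 groups of a line. Library totals ran from 30302497 to 46032327 counts in MCF10A and from 18340916 to 39536845 in MDA-MB-231.

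The oxygen labels were checked with CA9, a membrane carbonic anhydrase induced by HIF, in CPM (counts scaled to a common library size by the TMM method). Among MCF10A libraries it lay at 7.72 to 26.9 CPM in normoxia (n = 8) and 522 to 1356 CPM in hypoxia (n = 8). For MDA-MB-231 these ranges were 0.0568 to 1.02 and 13.03 to 34.6 CPM, so no hypoxic library overlapped a normoxic one. The line labels were matched only in part by marker genes. The libraries labelled MCF10A held the basal keratins KRT5 (1190 to 3268 CPM) and KRT17 (48.5 to 1034 CPM), but the other 4 of the 6 epithelial markers were at or near 0: CDH1 reached at most 0.361, TP63 0.226, EPCAM 0.461 and ESRP1 0.0492 CPM, while the mesenchymal gene VIM stood at 1691 to 9370 CPM. The 6 markers summed to between 1239 and 4170 CPM in these libraries and to between 12.9 and 26.4 CPM in MDA-MB-231. EPCAM was higher in MDA-MB-231, at 9.86 to 19.1 CPM. The 4 mesenchymal markers summed to 2209 to 9862 CPM in MCF10A and to 3983 to 7204 CPM in the carcinoma line. Most of this was VIM, whose ranges overlapped (3113 to 6082 CPM in the carcinoma line), while the other 3 did not overlap. ZEB1 (43.6 to 88.2 CPM) and AXL (699.8 to 1053 CPM) were higher in MDA-MB-231 than in MCF10A (4.69 to 32.6 and 225 to 401 CPM), and SPARC was near 0 there (at most 0.796 CPM) against 91.7 to 203 CPM in MCF10A. The hormone receptors ESR1 and PGR stayed under 1 CPM in both lines, and ERBB2 read 98.5 to 199 CPM in MCF10A against 25.7 to 46.5 CPM. The part of these markers in the results was not tested.

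MCF10A libraries were spread widely in how their counts depended on transcript length. Over all genes, the change of the level relative to the line's mean with each doubling of length ran from -0.49 to 0.22 on the log2 scale, whereas in MDA-MB-231 it stayed between -0.14 and 0.11. At the low end were NPP T replicate 2 (-0.49), N P replicate 1 (-0.32), HPP T replicate 2 (-0.28) and H P replicate 1 (-0.22), and at the high end NPP T replicate 1 (0.22) and H T replicate 1 (0.22), so that both NPP T libraries were at the ends. All 10 demethylase transcripts were longer than the median tested gene (4338 to 10701 bases, against a median of 3288 in MCF10A and 3328 in MDA-MB-231). Their median deviation from their own mean over the line was -1.04 (log2) in NPP T replicate 2, -0.79 in N P replicate 1, 0.17 in NPP T replicate 1 and 0.62 in H T replicate 1; it was highest, at 0.74, in HPP T replicate 1, whose slope was 0.19. VIM, a short transcript, stood at 7006 and 9370 CPM in NPP T replicate 2 and HPP T replicate 2. Calls are therefore also given without each of these 6 libraries, and with a correction for length that was chosen after the values were seen.

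**Figure D1:**
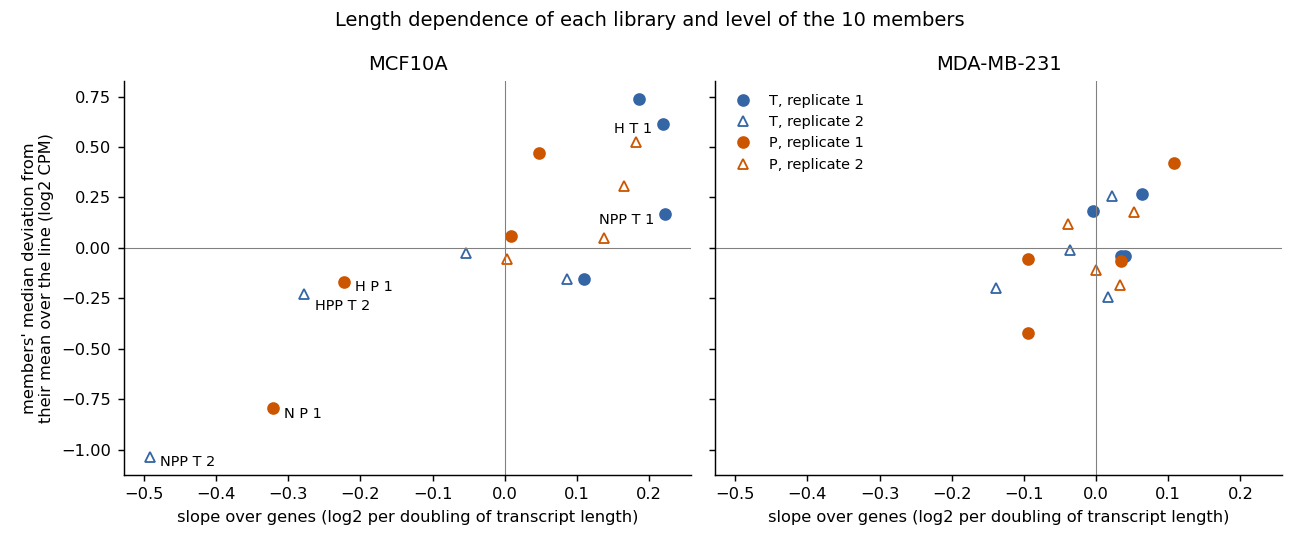
Each point is 1 library; the horizontal axis is the change of log2 level with each doubling of transcript length over all tested genes of the line, and the vertical axis is the median deviation (log2 CPM) of the 10 demethylase mRNAs from their mean over the line. The 6 named MCF10A libraries lie beyond -0.2 or 0.2, with NPP T replicate 2 lowest at -1.04 and replicate 1 of the same group farthest right, while the MDA-MB-231 libraries lie between -0.14 and 0.11.

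Promoter sequence is shown for the 6 members called in at least 1 treatment and for KDM3B, the paralogue of KDM3A that was called in none. Each runs 5′ to 3′ on the gene's own strand from 250 bases before to 50 bases after the RefSeq start (GRCh38.p14) nearest to that of the MANE Select transcript. Capitals mark ACGTG or GCGTG, the core of HIF binding sites, searched on both strands, so that CACGT and CACGC are also in capitals and CACGTG is 1 site read on both strands.
KDM2B (chr12:121580974-121581273, minus strand): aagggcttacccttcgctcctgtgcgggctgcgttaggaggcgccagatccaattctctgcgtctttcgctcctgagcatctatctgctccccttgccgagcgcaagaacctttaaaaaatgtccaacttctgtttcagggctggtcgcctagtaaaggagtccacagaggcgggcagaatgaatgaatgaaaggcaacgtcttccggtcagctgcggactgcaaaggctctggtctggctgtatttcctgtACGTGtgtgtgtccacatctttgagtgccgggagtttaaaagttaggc
KDM3A (chr2:86441121-86441420, plus strand): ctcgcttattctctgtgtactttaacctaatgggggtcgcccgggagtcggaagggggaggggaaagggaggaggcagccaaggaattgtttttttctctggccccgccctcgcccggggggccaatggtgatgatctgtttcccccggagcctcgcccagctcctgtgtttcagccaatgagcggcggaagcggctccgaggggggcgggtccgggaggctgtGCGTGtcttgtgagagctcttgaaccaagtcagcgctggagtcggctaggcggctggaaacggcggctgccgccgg
KDM3B (chr5:138352435-138352734, plus strand): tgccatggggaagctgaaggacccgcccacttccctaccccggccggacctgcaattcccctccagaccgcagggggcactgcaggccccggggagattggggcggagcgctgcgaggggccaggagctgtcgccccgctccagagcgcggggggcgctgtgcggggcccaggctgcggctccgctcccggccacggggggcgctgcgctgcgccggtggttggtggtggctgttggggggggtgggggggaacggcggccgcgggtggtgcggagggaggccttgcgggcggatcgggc
KDM4B (chr19:4968863-4969162, plus strand): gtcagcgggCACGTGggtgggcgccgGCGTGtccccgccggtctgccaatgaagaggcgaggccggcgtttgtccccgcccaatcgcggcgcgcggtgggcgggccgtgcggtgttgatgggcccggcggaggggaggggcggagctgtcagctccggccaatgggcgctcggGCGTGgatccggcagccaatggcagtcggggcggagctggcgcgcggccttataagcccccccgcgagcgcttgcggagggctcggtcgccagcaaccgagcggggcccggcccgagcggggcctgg
KDM4C (chr9:6757723-6758022, plus strand): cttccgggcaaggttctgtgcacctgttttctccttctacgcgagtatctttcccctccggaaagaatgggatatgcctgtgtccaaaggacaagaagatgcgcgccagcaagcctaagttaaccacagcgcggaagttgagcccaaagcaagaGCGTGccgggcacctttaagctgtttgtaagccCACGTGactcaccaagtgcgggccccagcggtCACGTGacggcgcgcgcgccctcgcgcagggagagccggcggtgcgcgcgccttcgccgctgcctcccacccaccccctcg
KDM5B (chr1:202808372-202808671, minus strand): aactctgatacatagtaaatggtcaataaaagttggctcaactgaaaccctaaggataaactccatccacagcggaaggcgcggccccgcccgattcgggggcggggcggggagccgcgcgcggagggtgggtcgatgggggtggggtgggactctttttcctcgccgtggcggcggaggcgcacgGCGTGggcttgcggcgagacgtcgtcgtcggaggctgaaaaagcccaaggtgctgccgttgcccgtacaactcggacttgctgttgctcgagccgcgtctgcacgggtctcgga
KDM6B (chr17:7833967-7834266, plus strand): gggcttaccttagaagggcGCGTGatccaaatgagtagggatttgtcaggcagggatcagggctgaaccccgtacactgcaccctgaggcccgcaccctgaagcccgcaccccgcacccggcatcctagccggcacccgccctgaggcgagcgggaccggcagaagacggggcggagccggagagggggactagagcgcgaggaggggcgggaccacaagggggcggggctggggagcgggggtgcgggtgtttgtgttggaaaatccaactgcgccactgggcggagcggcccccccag
KDM3A held a single GCGTG that begins 26 bases before the start, KDM4B had 3 sites (beginning 241, 224 and 77 bases before it), KDM4C 3 (96, 63 and 31 bases), KDM5B 1 (64 bases), KDM6B 1 (231 bases), KDM2B 1 (2 bases after it), and KDM3B none. Of the 10 genes, 9 had at least 1 match, but so did 48.4% of 35116 promoters of this length, and a match of 5 letters is a description and not a binding site. Of the 4 members without any call, KDM2A, KDM4A and KDM5A had matches and KDM3B had none.

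In untreated cells, levels were compared between members as TMM-scaled CPM per kilobase of transcript. In MCF10A total mRNA KDM3B was highest, at 8.92 ± 0.19 CPM per kb (SD, n = 2), and KDM6B lowest, at 0.948 ± 0.131. KDM4A (5.42), KDM5B (5.29) and KDM2B (5.18) came next and their replicates overlapped, as did those of KDM3A (4.36) and KDM2A (4.23), followed by KDM4B (2.88), KDM5A (2.27) and KDM4C (1.89), each with both libraries apart from its neighbours. In MDA-MB-231 total mRNA KDM2A (9.40), KDM3B (9.09), KDM3A (8.67) and KDM4A (8.06) led with ranges that overlapped between neighbours, KDM2B (5.53) and KDM5B (3.21) lay lower, KDM5A (2.20) and KDM4B (2.15) overlapped, and KDM6B (1.09) and KDM4C (1.04) were lowest and overlapped. Under H and under HPP KDM3A had the highest mean per kb of the 10 in both fractions of both lines. In MDA-MB-231 T it read 28.5 CPM per kb under H against 9.54 for KDM2A, and 32.2 ± 5.2 under HPP against 9.69, and it also led under NPP, at 14.99 against 9.75 for KDM4A. In MCF10A its libraries lay apart from the next member in P under HPP, at 19.8 ± 0.53 against 16.1 for KDM5B, and overlapped the next member under H in T and P and under HPP in T.

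**Figure D2:**
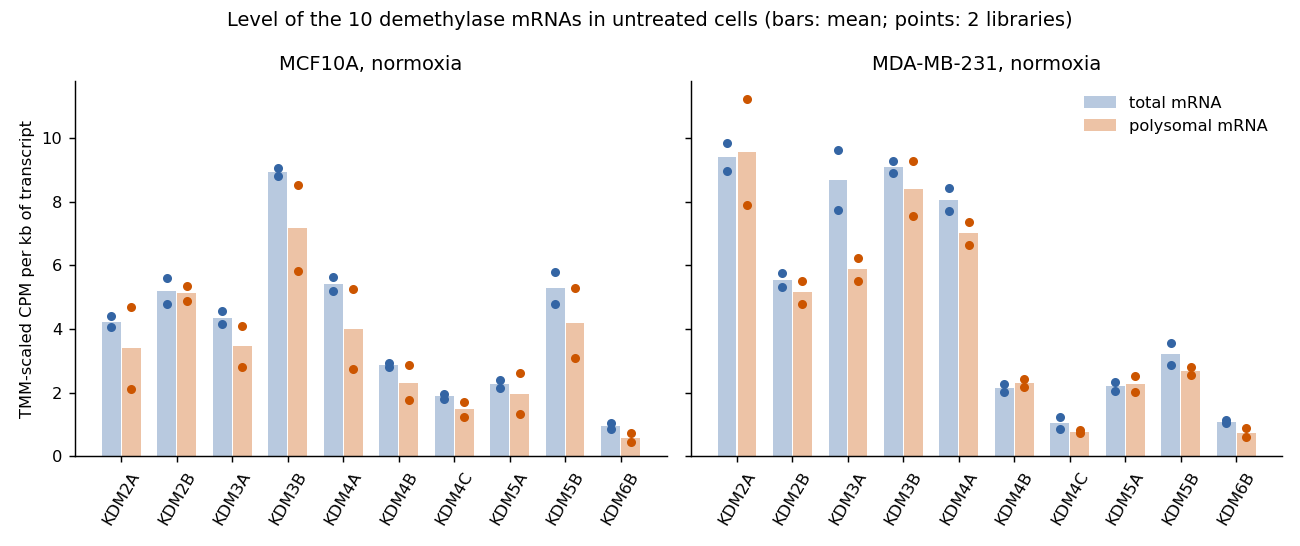
Level in untreated cells of the 10 demethylase mRNAs, in TMM-scaled CPM per kilobase of transcript; bars are means and points the 2 libraries of total (T, blue) and polysomal (P, orange) mRNA. KDM3B is highest in MCF10A total mRNA (8.92), and KDM2A, KDM3B, KDM3A and KDM4A lead in MDA-MB-231 (8.06 to 9.40).

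The first comparison asked which of these mRNAs respond to low oxygen. In MDA-MB-231 hypoxia raised KDM3A in T and P and KDM6B in P, that is 1 of 10 members in T and 2 of 10 in P, where 0.977% and 1.78% of all tested genes were called higher. DESeq2 called KDM6B in T as well (adjusted p = 0.0207; 2.61% of genes), as did edgeR with the length correction or without the low-count filter. In MCF10A, 0 of 10 were called in T or in P by edgeR's quasi-likelihood test (Benjamini-Hochberg adjusted p under 0.05 over 13124 genes), where 1.54% and 1.49% of genes were called in either direction; 3 of 10 had an unadjusted p under 0.05 in each fraction, as did 10.9% (T) and 12.5% (P) of genes, and DESeq2 called KDM3A in T and KDM3A and KDM4B in P, with 3.83% and 4.24% of genes. With a replicate block within fraction, added because the replicate numbers paired the MCF10A T libraries, KDM3A was called for H in T, 1 of 10, where 438 genes were called against 202 without the block. By level, KDM3A, KDM4B, KDM4C, KDM5B and KDM6B lay above both normoxic libraries in both hypoxic libraries of T and of P in both lines, 5 of 10 members, or 6 of 10 with KDM2B in MCF10A T; among all genes 23.6% (T) and 17.2% (P) did so in MCF10A; for MDA-MB-231 these shares were 17.4% and 22.6%. The members' median log2 fold change was 0.54 (T) and 0.58 (P) in MCF10A, against -0.03 and -0.07 over all genes; in the carcinoma line it was 0.21 and 0.30, against -0.02 and 0.01. CPM are shares of a library, so a larger share and more mRNA per cell cannot be told apart here.

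PP242 alone asked what mTOR inhibition does in normoxia. In MDA-MB-231 polysomes it raised KDM3A and KDM5B, 2 of 10 members against 0.762% of genes called higher; in T 0 of 10 passed by edgeR (0.555% of genes did), with 2 of 10 at an unadjusted p under 0.05 (10.3% of genes) and both of these, KDM3A and KDM5B, called by DESeq2 (1.86% of genes). In MCF10A 0 of 10 were called in T (0.648% of genes) or P (0.823%) by edgeR, with 1 and 3 of 10 at an unadjusted p under 0.05, and the former is at the share over all genes (9.54% in T and 13.3% in P). DESeq2 called KDM2B in T and KDM2B and KDM3A in P, where it called 2.73% and 5.07% of genes, and the length correction called KDM5B in T (adjusted p = 0.0273) and KDM5B, KDM3A and, as lower, KDM6B in P (adjusted p = 0.000696, 0.00203 and 0.0489).

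Hypoxia with PP242 gave the most calls. In MCF10A T KDM3A rose and KDM2B fell, where 7.43% of genes were called higher and 7.47% lower. With the replicate block within fraction KDM3A, KDM4B, KDM4C, KDM5B and KDM6B rose and KDM2B fell, 6 of 10. There 3484 of 13124 genes were called in either direction, against 1956 without the block. Their split by direction is not given here, so the rises and the fall were not each set against a share. Without the block, 1 of 10 in each direction is near the background in T. In P KDM3A, KDM5B, KDM4C and KDM4B rose and KDM2B fell, 4 and 1 of 10, where 10.2% and 11.9% of genes did, so that 1 of 10 lower is also near the background. In MDA-MB-231 KDM3A, KDM5B, KDM6B and KDM4B rose in T, 4 of 10 against 6.31% of genes called higher, and the same 4 with KDM4C rose in P, 5 of 10 against 9.71%. KDM2A, KDM3B, KDM4A and KDM5A were called by edgeR in no treatment, fraction or line.

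**Figure D3:**
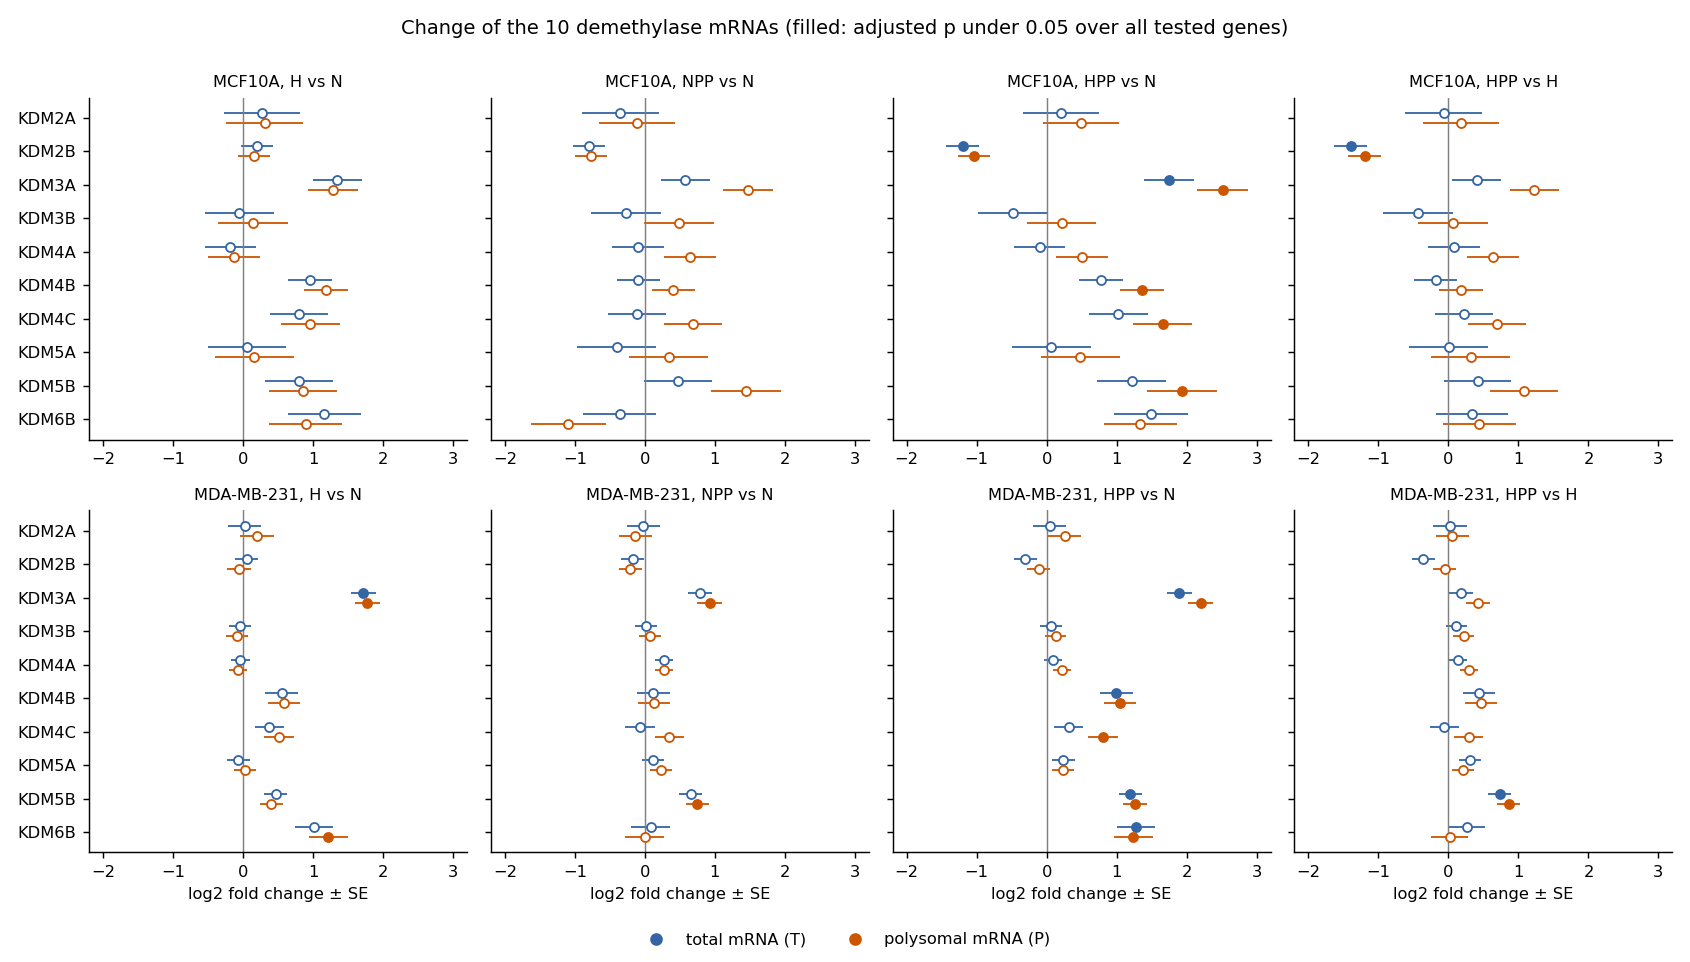
Log2 fold change (horizontal axis, bars ± SE) of the 10 demethylase mRNAs for the comparisons H, NPP and HPP against N and HPP against H, in total (T, blue) and polysomal (P, orange) mRNA of each line; filled points passed an adjusted p under 0.05 over all tested genes. KDM3A reaches 2.51 in MCF10A P and 2.20 in MDA-MB-231 P under HPP, KDM2B is the member called lower, and MCF10A bars are wider than those of MDA-MB-231.

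Among the H3K36 demethylases, KDM2B (ENSG00000089094, chromosome 12, 121429096 to 121581023, minus strand, GRCh38), which brings a variant Polycomb complex to CpG islands, was the member that fell. In MCF10A T it read 25.4 and 29.7 CPM in N, 30.4 and 32.7 in H, 14.5 and 17.2 in NPP and 13.4 and 10.6 in HPP. In P it read 26.0 and 28.4, 26.5 and 34.4, 15.6 and 16.3, and 13.96 and 12.6 CPM in the same order. All 8 libraries with PP242 thus lay below all 8 without it. HPP against N gave a log2 fold change of -1.201 ± 0.23 (SE) in T (adjusted p = 0.00569, edgeR) and -1.03 ± 0.23 in P (adjusted p = 0.00882), a fall of 2.30-fold and 2.05-fold. The HPP call was lost in T without N T replicate 2 or HPP T replicate 2 and in P without HPP P replicate 2 (adjusted p of up to 0.0822 and 0.0811), and in P also with library-size scaling in place of TMM (0.0719). NPP against N gave -0.80 ± 0.23 and -0.77 ± 0.23, which did not pass (adjusted p = 0.205 and 0.144, edgeR). In MDA-MB-231 KDM2B ranged from 22.5 to 33.7 CPM over T and 22.6 to 29.4 over P, and its HPP values against N were -0.31 ± 0.16 and -0.11 ± 0.16, neither called (adjusted p = 0.238 and 0.678, edgeR). Its paralogue KDM2A ranged from 13.8 to 51.2 CPM in MCF10A and from 55.4 to 94.6 in MDA-MB-231, and its treatment effects against N lay between -0.35 and 0.49 (log2), with SEs of up to 0.55.

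Of the H3K9 mono- and dimethyl demethylases, KDM3A (ENSG00000115548, chromosome 2, 86440647 to 86492716, plus strand) changed most. In MDA-MB-231 T it read 44.8 and 36.04 CPM in N, 129 and 137 in H, 76.6 and 63.2 in NPP, and 168 and 133 in HPP. In P it read 29.1 and 25.7, 82.1 and 105.5, 55.2 and 49.0, and 134 and 117 CPM. In each fraction N was lowest, NPP was between, and H and HPP were highest with overlapping ranges in T. Hypoxia raised it 3.29-fold in T (log2 1.72 ± 0.18 SE, adjusted p = 0.00011, edgeR) and 3.42-fold in P (1.78 ± 0.18, adjusted p = 7.73e-05). PP242 alone gave 0.79 ± 0.18 in T (adjusted p = 0.0677, edgeR) and 0.93 ± 0.18 in P (adjusted p = 0.0107), and the combination 1.89 ± 0.18 and 2.20 ± 0.18 (adjusted p = 3.07e-05 and 3.61e-06), a rise of 4.59-fold in P. The NPP call in P was lost without NPP P replicate 1 or N P replicate 2 (adjusted p of up to 0.181), and the H and HPP calls held without any 1 library.

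In MCF10A T KDM3A read 21.3 and 19.4 CPM in N, 61.4 and 42.2 in H, 40.1 and 20.5 in NPP, and 86.1 and 50.6 in HPP. In P it read 13.2 and 19.2, 39.2 and 39.7, 47.1 and 42.5, and 94.2 and 90.7 CPM. Both hypoxic libraries were above both normoxic ones in each fraction, and replicate 2 of NPP T, a library that stood apart by length, was level with N. In P the NPP libraries lay above the H libraries. PP242 alone gave 0.58 in T and 1.47 in P, neither called (adjusted p = 0.0819 in P, edgeR). DESeq2 and the length correction called KDM3A for NPP in P. Hypoxia gave 1.35 ± 0.35 in T and 1.29 ± 0.35 in P, which did not pass (adjusted p = 0.108 and 0.116, edgeR), although the normoxic and hypoxic ranges did not overlap; with the replicate block within fraction T gave 1.31 and passed (adjusted p = 0.0153). The combination raised KDM3A by 1.75 ± 0.36 in T (adjusted p = 0.00775) and 2.51 ± 0.37 in P (adjusted p = 0.000996, edgeR), 5.71-fold in P; the call in T was lost without either N T library (adjusted p of up to 0.0871) and with library-size scaling (0.0669). With the length correction the hypoxic values were 1.29 and 1.22 and both passed (adjusted p = 0.0037 and 0.00498). KDM3B, the paralogue on chromosome 5 (138352685 to 138437028), ranged from 23.1 to 76.6 CPM in MCF10A, with NPP T replicate 2 lowest. There DESeq2 gave effects against N from -0.43 (HPP in T) to 0.48 (NPP in P) on the log2 scale, none called. In the carcinoma line KDM3B ranged from 49.8 to 68.4 CPM, and its effects against N lay between -0.09 and 0.13 (log2).

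**Figure D4:**
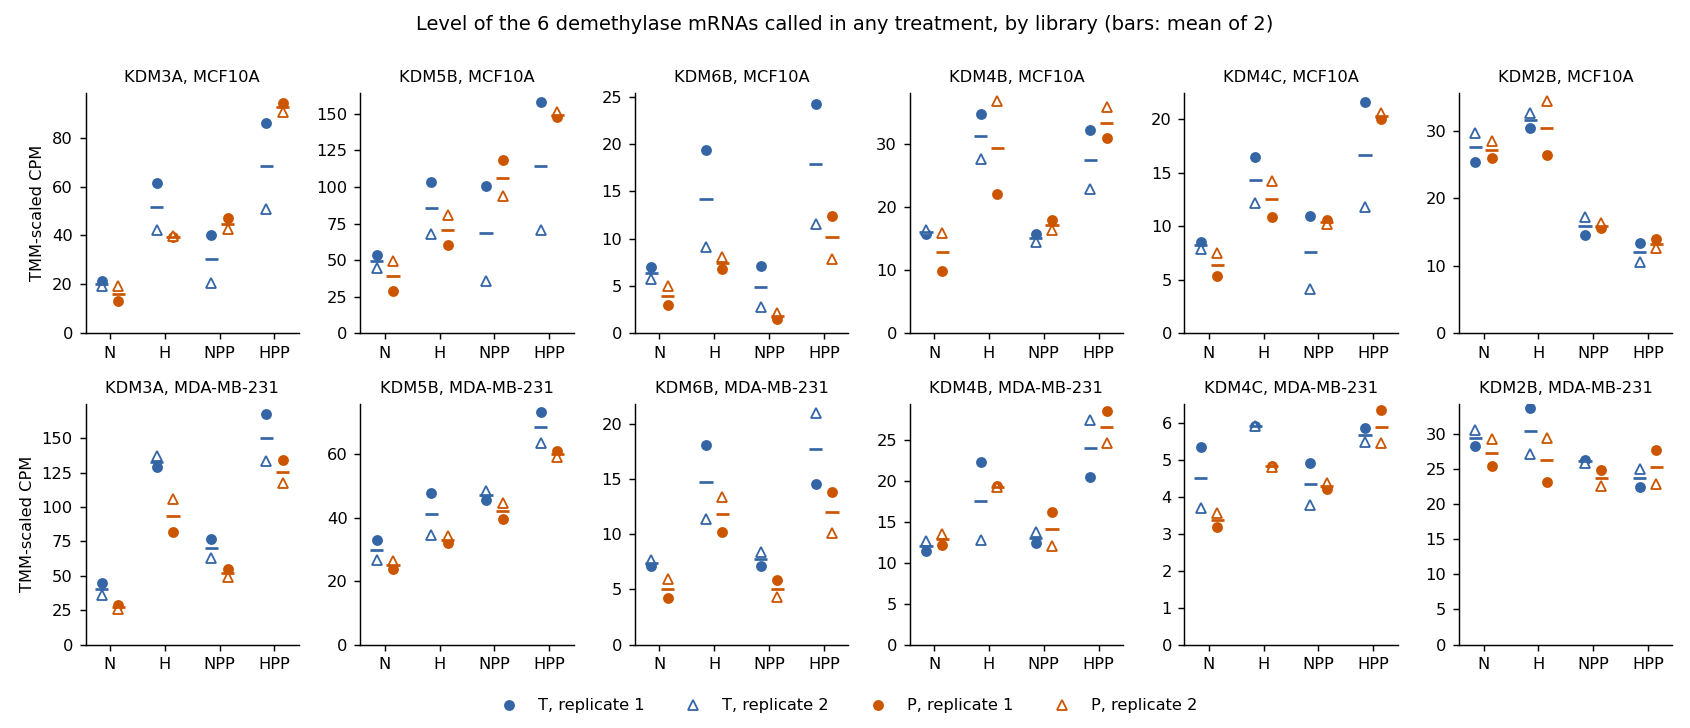
TMM-scaled CPM of the 6 demethylase mRNAs called in at least 1 treatment, in MCF10A (top) and MDA-MB-231 (bottom), for normoxia (N), hypoxia (H), normoxia with PP242 (NPP) and hypoxia with PP242 (HPP); circles and triangles are replicates 1 and 2 of total (T, blue) and polysomal (P, orange) mRNA and bars are means. The means of KDM3A are lowest in N in each line and fraction and MCF10A KDM2B is lower in every library with PP242 (10.6 to 17.2) than in any without (25.4 to 34.4).

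Among the H3K9 and H3K36 trimethyl demethylases, KDM4B (ENSG00000127663, chromosome 19, 4969113 to 5153598, plus strand) passed under HPP. With all libraries and neither a block nor the length correction, it did not pass under H alone (edgeR). In MCF10A T it read 15.8 and 16.5 CPM in N, 34.9 and 27.7 in H, 15.7 and 14.6 in NPP, and 32.3 and 22.9 in HPP. In P it read 9.88 and 15.99, 22.1 and 36.8, 17.99 and 16.4, and 30.95 and 35.9 CPM. In T and P the 4 H and HPP libraries lay above all 4 N and NPP libraries. Of these contrasts HPP in P passed (1.37 ± 0.32, adjusted p = 0.0105, edgeR), while H gave 0.96 ± 0.31 in T and 1.19 ± 0.31 in P (adjusted p = 0.220 and 0.104) and HPP in T gave 0.77 ± 0.31 (adjusted p = 0.123, against 0.0485 with the replicate block within fraction and 0.0401 in DESeq2). In MDA-MB-231 T it read 11.4 and 12.7 CPM in N, 22.3 and 12.8 in H, 12.4 and 13.7 in NPP and 20.5 and 27.4 in HPP, so that H replicate 2 was level with N, and in P 12.2 and 13.6, 19.4 and 19.2, 16.1 and 12.01, and 28.5 and 24.6. HPP raised it by 1.00 ± 0.24 in T (adjusted p = 0.0135) and 1.05 ± 0.23 in P (adjusted p = 0.00702, edgeR), while H gave 0.55 ± 0.24 and 0.59 ± 0.23 (adjusted p = 0.339 and 0.212). The MCF10A call was lost without N P replicate 1 or HPP P replicate 2, and the MDA-MB-231 calls without N T replicate 1, N T replicate 2 or HPP T replicate 2 (T) and without HPP P replicate 1 (P), with adjusted p of up to 0.0789, 0.108 and 0.0686.

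KDM4C (ENSG00000107077, chromosome 9, 6720863 to 7175648, plus strand) passed in P of HPP in both lines by edgeR, and in MCF10A T of HPP by DESeq2 (adjusted p = 0.0456). In MCF10A P it read 5.38 and 7.47 CPM in N, 10.9 and 14.2 in H, 10.6 and 10.2 in NPP and 20.04 and 20.6 in HPP, a rise of 1.66 ± 0.42 for HPP (adjusted p = 0.0169, edgeR). In T, HPP read 21.6 and 11.8 CPM against 8.56 and 7.86 in N, a value of 1.02 ± 0.42 that was not called by edgeR (adjusted p = 0.125, and 0.036 with the replicate block within fraction). In MDA-MB-231 P it read 3.18 and 3.55 CPM in N, 4.84 and 4.80 in H, 4.22 and 4.38 in NPP and 6.35 and 5.46 in HPP, a rise of 0.81 ± 0.21 for HPP (adjusted p = 0.016, edgeR), and in T HPP gave 0.32 ± 0.21 (adjusted p = 0.342). These calls were lost without N P replicate 1 or HPP P replicate 2 in MCF10A (adjusted p of up to 0.0999), there also with library-size scaling (0.0522), and without either N P library or HPP P replicate 1 in MDA-MB-231 (up to 0.128). KDM4A ranged from 12.3 to 29.2 CPM in MCF10A and from 28.1 to 44.7 in MDA-MB-231, and its effects against N lay between -0.18 and 0.64 (log2). Reads from an antisense gene inside the KDM4A locus, KDM4A-AS1, were counted in a row of their own that held 2.96% as many counts as KDM4A, and the sources used here state no strand for the counting.

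Of the H3K4 demethylases, KDM5B (ENSG00000117139, chromosome 1, 202724495 to 202808487, minus strand) was read in edgeR with all libraries, the low-count filter and neither a block nor the length correction. It passed there under HPP in P of MCF10A and in both fractions of MDA-MB-231. It also passed under NPP in MDA-MB-231 P, and nowhere under H alone. DESeq2 also called it for HPP in MCF10A T (adjusted p = 0.0453) and for NPP in MDA-MB-231 T (adjusted p = 0.01605). In MDA-MB-231 T it read 33.0 and 26.6 CPM in N, 47.7 and 34.5 in H, 45.7 and 48.4 in NPP, and 73.2 and 63.6 in HPP. In P it read 23.7 and 26.2, 31.9 and 34.3, 39.6 and 44.5, and 60.8 and 59.1 CPM. In both fractions HPP was above the other 3 groups and N was below them. PP242 alone gave 0.66 ± 0.17 in T (adjusted p = 0.107) and 0.75 ± 0.17 in P (adjusted p = 0.029), hypoxia alone 0.47 ± 0.17 and 0.41 ± 0.17 (adjusted p = 0.227 and 0.225), and the combination 1.196 ± 0.17 and 1.26 ± 0.17 (adjusted p = 0.000545 and 0.000159, edgeR). In MCF10A P it read 28.6 and 49.2 CPM in N, 60.3 and 81.0 in H, 119 and 93.8 in NPP, and 148 and 151 in HPP, a rise of 1.94 ± 0.50 for HPP (adjusted p = 0.0177, edgeR). In MCF10A T, replicates 1 and 2 read 158 and 70.4 CPM in HPP and 100.7 and 35.9 in NPP, so that the spread between replicates was large in these 2 groups. HPP in T gave 1.21 ± 0.49, which was not called (adjusted p = 0.123, edgeR), but was with the replicate block within fraction (1.08, adjusted p = 0.0293). The call in MCF10A P was lost without N P replicate 1 or either HPP P library (adjusted p of up to 0.115) or with library-size scaling (0.0510), and the NPP call in MDA-MB-231 P without any 1 of 6 libraries (up to 0.215), while the HPP calls in MDA-MB-231 held without any 1 library. KDM5A ranged from 7.87 to 34.98 CPM in MCF10A and from 19.5 to 29.2 in MDA-MB-231, and its effects against N lay between -0.40 and 0.48 (log2).

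KDM6B (ENSG00000132510, chromosome 17, 7834217 to 7854796, plus strand), the H3K27 demethylase, had the lowest level per kb in untreated MCF10A and rose in MDA-MB-231 under H in P (and in T by DESeq2) and under HPP in both fractions. In MDA-MB-231 T it read 7.07 and 7.62 CPM in N, 18.1 and 11.4 in H, 7.14 and 8.40 in NPP, and 14.5 and 20.9 in HPP. In P it read 4.18 and 5.91, 10.2 and 13.4, 5.81 and 4.32, and 13.8 and 10.1 CPM. The hypoxic libraries with or without PP242 lay above all normoxic ones in each fraction. Hypoxia gave 1.01 ± 0.27 in T (adjusted p = 0.101) and 1.22 ± 0.28 in P (adjusted p = 0.0344), and HPP 1.27 ± 0.27 and 1.24 ± 0.28 (adjusted p = 0.00855 and 0.00725, edgeR). The call for H in P was lost without either N P library or H P replicate 2 (adjusted p of up to 0.21) and with library-size scaling (0.0637), and those for HPP without N T replicate 2 or HPP T replicate 2 (T, up to 0.0736) and N P replicate 1 or HPP P replicate 1 (P, up to 0.0847). PP242 alone gave 0.08 ± 0.28 in T. In MCF10A T it read 6.998 and 5.75 CPM in N, 19.4 and 9.07 in H, 7.08 and 2.81 in NPP and 24.3 and 11.6 in HPP, and in P 3.00 and 4.97, 6.83 and 8.05, 1.55 and 2.20, and 12.4 and 7.85. None of its contrasts passed there in edgeR with all libraries and neither a block nor the length correction. The largest was HPP in T at 1.49 ± 0.52 (adjusted p = 0.0792, against 0.0137 with the replicate block within fraction and 0.0158 in DESeq2). HPP in P passed in DESeq2 (1.36, adjusted p = 0.0321) and with the length correction. It also passed in edgeR with the replicate block within fraction (1.38, adjusted p = 0.0111), though the replicate numbers did not pair the MCF10A P libraries. NPP in P gave -1.09 ± 0.53 (adjusted p = 0.418, edgeR).

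The addition of PP242 to hypoxic cells was tested as HPP against H. In MCF10A KDM2B fell by 1.40 ± 0.23 (log2, SE) in T (adjusted p = 0.00776) and by 1.197 ± 0.23 in P (adjusted p = 0.0131, edgeR), 1 of 10 members where 2.42% and 3.87% of genes were called lower. KDM5B was not called there by edgeR with all libraries and neither a block nor the length correction. The length correction called it in both MCF10A fractions. With a replicate block it gave 0.39 in T and 1.06 in P there, neither called. In MDA-MB-231 KDM5B rose by 0.73 ± 0.16 in T (adjusted p = 0.0252) and 0.86 ± 0.16 in P (adjusted p = 0.00462, edgeR). That was 1 of 10 where 1.7% and 4.86% of genes were called higher. The KDM2B calls were lost without H T replicate 1, H T replicate 2 or HPP T replicate 2 (T, adjusted p of up to 0.101) and without H P replicate 2 or either HPP P library (P, up to 0.13), and that in P also with library-size scaling (0.0735). Those of KDM5B were lost without either HPP T library or H T replicate 2 (T, up to 0.232) or with library-size scaling (T, 0.0510) and without HPP P replicate 1 (P, where the adjusted p reached the threshold). KDM3A gave 1.23 ± 0.35 in MCF10A P (adjusted p = 0.0629) and 0.42 ± 0.17 in MDA-MB-231 P (adjusted p = 0.13), neither called by edgeR, though DESeq2 and the length correction called the former (adjusted p = 0.00598 and 0.00279), and KDM6B gave 0.02 to 0.44 over both lines and fractions.

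Translational efficiency (Te) was tested as the change in P minus the change in T. In edgeR without a block 0 of 10 members were called for H, NPP or HPP in either line, and 0 of 10 had an unadjusted p under 0.05. With the replicate block within fraction there were also 0 calls. In that edgeR fit MCF10A had unadjusted p of 0.0153 (KDM3A), 0.0231 (KDM5B) and 0.0417 (KDM4C) for NPP, and 0.0327 (KDM3A) for HPP. DESeq2 called none of the members to which it gave an adjusted p, but for NPP it gave one to 0 of 10 in MCF10A and 1 of 10 in MDA-MB-231, and for HPP to 1 and 8 of 10. In MDA-MB-231 2 genes were called for H (0.0148%), 46 for NPP (0.34%) and 94 for HPP (0.696%), and in MCF10A 0% of 13124 genes were, with 23, 296 and 433 genes at an unadjusted p under 0.05 and 0, 94 and 140 called by DESeq2. In MDA-MB-231 KDM3A gave 0.06 (95% interval -0.47 to 0.58) for H and 0.30 (-0.22 to 0.83) for HPP on the log2 scale. In MCF10A the intervals were wider, -1.14 to 1.02 for H and -0.31 to 1.84 for HPP. The members' median Te change in MCF10A was 0.74 for NPP and 0.60 for HPP, against -0.01 and 0.05 over all genes. For HPP it was 0.66 over 6 HIF prolyl hydroxylases and subunits and 0.12 over 20 histone lysine methyltransferases. These contrasts draw on the libraries that stood apart by length. With the length correction the members' medians were 0.49 and 0.33, and with library-size scaling 0.92 and 0.95. By contrast the 8 reference mRNAs with a terminal oligopyrimidine tract (such as ribosomal proteins and elongation factors, whose translation depends on mTOR) had a median Te change for HPP of -1.79 in MDA-MB-231, where 6 of 8 were called lower, and of -2.85 in MCF10A, where 0 of 8 were called by edgeR, 7 of 8 had an unadjusted p under 0.05 and DESeq2 called 6. In P, RPS6 fell under HPP by 2.72 ± 0.53 in MCF10A (adjusted p = 0.00458), and in the carcinoma line TPT1 fell by 2.15 ± 0.18 (adjusted p = 3.61e-06).

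Polysomal against total mRNA in untreated cells gave 1 call, KDM3A in MDA-MB-231, lower in P by 0.56 ± 0.18 on the log2 scale (adjusted p = 0.0488, edgeR), where 8.64% of genes were called lower. That value sits at the threshold: it was not called in any of the 16 refits that left out 1 library, nor with the length correction. In MCF10A 0 of 10 were called by edgeR or DESeq2 or had an unadjusted p under 0.05, where edgeR called 0% of genes (1660 had an unadjusted p under 0.05), and all 10 values were below 0, with a median of -0.32 that became -0.13 with the length correction.

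Whether the response differs between the lines was tested in a joint fit of all 32 libraries, as the effect in MDA-MB-231 minus that in MCF10A. In edgeR 0 of 10 members were called for H (0.266% of 14298 genes in T and 0.329% in P), with 0 of 10 at an unadjusted p under 0.05, or for HPP (3.31% and 3.6%). KDM2B under HPP came closest, with a difference of 0.99 ± 0.28 in T (95% interval 0.41 to 1.57, adjusted p = 0.0523, and 0.0403 with a replicate block) and 0.90 ± 0.28 in P (0.33 to 1.48, adjusted p = 0.0753); it was the 1 member with an unadjusted p under 0.05 in each (15.4% and 16.7% of genes), and DESeq2 called it in T (adjusted p = 0.029) and P (adjusted p = 0.0189), with 5.22% and 6.5% of genes. For KDM3A under H the difference was 0.42 (-0.39 to 1.23) in T and 0.41 (-0.40 to 1.22) in P. Both no difference and a difference as large as 1.22 lie within these intervals.

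Without 1 of the 6 libraries at the ends of the length range, or with the length correction, MCF10A calls moved in both directions, and so did the calls over all genes. The NPP T group is not part of the H or HPP contrasts and bears on them through the spread and scaling shared by all groups. With either of its libraries left out, it adds no replicate difference to that spread. Its replicate difference was the largest in MCF10A (SD 1.19 over genes, log2). With all libraries 0 members (202 genes) were called for H in T, 0 (195 genes) for H in P, 2 (1956 genes) for HPP in T and 5 (2910 genes) for HPP in P. Leaving out NPP T replicate 2 gave 1 (283 genes), 1 (276 genes), 5 (2593 genes) and 6 (3728 genes) for these contrasts, and leaving out replicate 1 of the same group gave 1 (280 genes), 1 (287 genes), 4 (2639 genes) and 6 (3790 genes), so that either NPP T library moved them alike. Without HPP T replicate 2 the count was 1 for HPP in T (681 genes) and 0 for HPP against H in T (71 genes), against 1 (491 genes) with all libraries; without H T replicate 1 the latter was also 0, with fewer genes called overall. Without N P replicate 1 it was 2 for HPP in P (1194 genes), and without H P replicate 1 it stayed at 5 (2593 genes). With the length correction there were 2 (T, 515 genes) and 3 (P, 682 genes) for H, 6 (3480 genes) and 6 (4537 genes) for HPP, and 1 (286 genes) and 3 (750 genes) for NPP; KDM3A and KDM5B were called for H in both fractions and KDM4B in P. In MDA-MB-231 the length correction gave 4 and 5 calls for HPP, as without it.

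The other oxygen-dependent and chromatin genes were read from lists of related genes. Of the other JmjC proteins, 17 were tested in MCF10A and 16 in MDA-MB-231. For H, 0 of them were called in either line by edgeR or DESeq2, with 1 of 17 at an unadjusted p under 0.05 in each fraction of MCF10A and 3 (T) and 5 (P) of 16 in MDA-MB-231, where 12.7% and 17.2% of genes were. For NPP, C14orf169 fell in MDA-MB-231 P by 0.64 ± 0.14 (adjusted p = 0.0334, edgeR), 1 of 16 where 1.19% of genes were called lower. For HPP, 3 fell in MCF10A T and 3 in P, where 1 rose, and 2 fell in each fraction of MDA-MB-231, where 1 rose in P. The shares of all genes called lower were those given above for MCF10A, and 6.91% (T) and 9.73% (P) in MDA-MB-231, so that 2 of 16 is near the background. C14orf169, a ribosomal-protein hydroxylase, fell by 2.45 ± 0.36 in MCF10A T and by 0.80 ± 0.14 in MDA-MB-231 P (adjusted p = 0.00128 and 0.00198, edgeR). MINA, a second such hydroxylase, fell by 1.08 ± 0.22 in MCF10A T and 0.67 ± 0.14 in MDA-MB-231 T (adjusted p = 0.00735 and 0.00774). PHF2, an H3K9 demethylase, fell by 1.73 ± 0.45 in MCF10A T (adjusted p = 0.0244), JARID2, an inactive family member that works with Polycomb, rose by 1.82 ± 0.53 in MCF10A P (adjusted p = 0.0291), and KDM7A rose by 1.45 ± 0.38 in MDA-MB-231 P (adjusted p = 0.0175). KDM6A, the close relative of KDM6B, gave -0.26 (T) and -0.08 (P) under H in MCF10A, with no call, and in MDA-MB-231 -0.31 and -0.23, also without one. Over this list the median for H in T was -0.03 (MCF10A) and -0.14 (MDA-MB-231).

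Demethylases that use FAD in place of iron were called once per fraction: KDM1A fell under HPP in MDA-MB-231 by 0.42 ± 0.13 in T (adjusted p = 0.0401) and by 0.41 ± 0.13 in P (adjusted p = 0.033, edgeR), 1 of 2, and gave -0.61 and -0.55 in MCF10A (adjusted p = 0.0727 and 0.0794). Of 20 histone lysine methyltransferases, which place the same marks, 0 were called for H in either line by edgeR (1 of 20 at an unadjusted p under 0.05 in each MCF10A fraction, where DESeq2 called EZH2, and 0 in T and 1 in P of MDA-MB-231), and 1 rose and 1 fell in MCF10A T for HPP, with 2 and 2 in P, counts near or below the share of all genes called there. SETDB1, an H3K9 methyltransferase, rose by 0.82 ± 0.21 and SUV39H2, another, fell by 1.22 ± 0.24 in T (adjusted p = 0.0208 and 0.00644, edgeR). EZH1 rose by 1.65 ± 0.44 and EZH2 fell by 0.91 ± 0.24 in P (adjusted p = 0.0212 and 0.0201). In MDA-MB-231 WHSC1L1 fell in T by 0.57 ± 0.17 (adjusted p = 0.0343), 1 of 20, and 0 of 20 were called in P by edgeR, where 6 had an unadjusted p under 0.05 (34% of genes) and DESeq2 called WHSC1L1 (23.1% of genes). For HPP the median over the list in T was -0.67 (MCF10A) and -0.28 (MDA-MB-231).

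Of the 6 sensors and HIF subunits, 1 rose in each fraction of MCF10A under H, where 1.39% (T) and 1.33% (P) of genes were called higher, and 2 rose and 1 fell in each of MDA-MB-231, where 0.289% and 0.511% were called lower. EGLN3, a prolyl hydroxylase that marks HIF for destruction, rose under H by 5.79 ± 0.51 in MCF10A T and by 2.34 ± 0.21 in MDA-MB-231 T (adjusted p = 0.000271 and 3.04e-05, edgeR). EGLN1 rose by 1.22 ± 0.14 in MDA-MB-231 T (adjusted p = 0.000304) and gave 1.28 ± 0.33 in MCF10A T (adjusted p = 0.107), close in size and error to KDM3A there. HIF1A mRNA fell by 1.58 ± 0.19 in MDA-MB-231 T (adjusted p = 0.000304) and gave -0.25 ± 0.46 in MCF10A. Of the DNA and RNA dioxygenases, ALKBH5, an RNA demethylase, rose under H in MDA-MB-231 by 0.77 ± 0.16 in T and 0.83 ± 0.16 in P (adjusted p = 0.0343 and 0.0164, edgeR), 1 of 5. In MCF10A 0 of 5 were called by edgeR or DESeq2, with 1 of 5 at an unadjusted p under 0.05 in each fraction. All 5 lay above 0 under H there, with medians of 0.48 (T) and 0.40 (P). In MDA-MB-231 the medians over this list were -0.17 and 0.37, with 2 and 3 of 5 above 0. The 8 hypoxia reference genes set the scale of a full response: 6 of 8 rose in MCF10A and 5 of 8 in MDA-MB-231 under H in each fraction, and the medians in T were 2.22 and 2.02. NDRG1, a stress-response gene, rose by 4.12 ± 0.39 and 3.75 ± 0.20 in T (adjusted p = 0.000356 and 2.51e-07). Under HPP in P, ANKRD37 rose by 2.20 ± 0.34 (MCF10A) and 3.30 ± 0.20 (MDA-MB-231; adjusted p = 0.00144 and 4.38e-07). SLC2A1, a glucose transporter, rose by 2.78 ± 0.30 in MCF10A P under HPP (adjusted p = 0.000208), and BNIP3, a mitophagy receptor, by 2.75 ± 0.17 in MDA-MB-231 P under H (adjusted p = 5.28e-07).

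Genes whose log2 level followed KDM3A most closely were ranked by the lower of the Pearson r over the 16 libraries of each line, across 12374 genes. INSIG2 (r = 0.923 in MCF10A and 0.915 in MDA-MB-231), RHOU (0.913 and 0.935), ZNF160 (0.909 and 0.930), CALCOCO1 (0.910 and 0.897) and SLC2A3, a glucose transporter (0.913 and 0.884), came first. For KDM4B they included GYS1, a glycogen synthase (0.919 and 0.932), LRP1 (0.940 and 0.898), HS6ST3 (0.952 and 0.886) and ATP2B4 (0.880 and 0.916). These values describe libraries that share treatments, cultures, depth and length dependence. Within the family, KDM3A ran with KDM5B at r = 0.941 (MCF10A) and 0.773 (MDA-MB-231), with KDM4C at 0.923 and 0.877, and with KDM2B at -0.530 and -0.141.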

How the data were processed

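RNA-Seq libraries of total and polysomal mRNA from 2 lines were analysed (32 libraries). The authors prepared poly(A) libraries, aligned paired reads with STAR and quantified genes with RSEM; the deposited values are expected counts, given as whole numbers and not normalised. The study's methods name GRCh38 and the submitters' processing notes GRCh37 (gene identifiers carry versions that occur on GRCh38). The strand setting is not given in the sources used here. Coordinates and transcript lengths came from a GRCh38 GENCODE annotation and promoters from RefSeq (all 10 members matched).

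Protein-coding rows were filtered with filterByExpr, scaled by TMM and fitted with edgeR 4.0.16 (R 4.3.3) in 8 groups a line. Quasi-likelihood F tests were adjusted by Benjamini-Hochberg over all tested genes (13124 in MCF10A, 13510 in MDA-MB-231, 14298 jointly), with calls at an adjusted p under 0.05. With 2 replicates a group, 8 residual degrees of freedom were shared; the biological coefficient of variation came to 0.325 (MCF10A) and 0.150 (MDA-MB-231). Group means are over 2 libraries. Same-numbered libraries deviated together in MCF10A T (6 of 6 pairs with r over 0.1, from 0.283 to 0.778), a pairing read from the data, but not in MCF10A P (3 of 6) or in T or P of MDA-MB-231 (4 of 6 each). The code was tested on simulated data.

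The members, gene lists and tests were chosen with earlier results of these data known. Values per library were given for members called for H or HPP. From each list, up to 4 genes a line with the largest change among those called for H or HPP were named, with HIF1A, EGLN1, EGLN3, KDM1A, KDM6A, EZH2, CA9 and NDRG1. Alternatives were DESeq2 1.42.0, library-size scaling, no low-count filter, replicate and culture blocks, an adjusted p under 0.10, leaving out each library, and a length offset (loess, span 0.3). One gene ranked by its likeness to KDM4B is not reported here.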

Additional observations from a re-analysis of the deposited data

How the results depend on the processing

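Of 26 changes called for members, 7 kept their call under every alternative and every left-out library, and none changed sign. MCF10A calls were kept in 126 of 144 refits without 1 library, MDA-MB-231 calls in 230 of 272. KDM3A kept its call throughout for H in MDA-MB-231 (T and P) and for HPP in P of both lines and T of MDA-MB-231, as did KDM5B for HPP in T and P of MDA-MB-231.

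The length offset and the replicate block within fraction were chosen after seeing the data. DESeq2 and the length offset called 1 and 2 members for H in MCF10A T, and 2 and 3 in P. For NPP they called 1 and 1 in T, and 2 and 3 in P. They called 6 and 6 for HPP in T, and 2 and 3 for HPP against H in P. The length offset also gave 2 for HPP against H in T. Both settings called more MCF10A genes for H and NPP than edgeR without an offset, as did the length offset for HPP. Shares of all genes called are not given here for DESeq2 under HPP in T, or for either setting under HPP against H. Those member counts were therefore not set against a background. In MDA-MB-231 both settings gave 2 for H in T and 2 for NPP in T, and the length offset 0 for P against T. Library-size scaling gave 1 (T, KDM2B) and 2 (P, KDM3A and KDM4B) for HPP and 0 for HPP against H in P in MCF10A, and 1 for H in P and 0 for HPP against H in T in MDA-MB-231. Without the low-count filter MDA-MB-231 gave 2 for H and 2 for NPP in T. At an adjusted p under 0.10 MCF10A gave 1 for NPP and 2 for HPP against H in P, MDA-MB-231 1 for NPP in T, and the joint fit 1 in T and 1 in P for HPP, as did DESeq2. The cause of these changes was not tested.

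The replicate numbers paired the libraries of MCF10A T and not those of the other sets: over both fractions, correlations of same-numbered libraries ran from -0.641 to 0.778 in MCF10A (11 of 28 over 0.1) and from -0.187 to 0.348 in MDA-MB-231 (19 of 28). With the replicate block, MDA-MB-231 gave 1 call for NPP in T and the joint fit 1 for HPP in T (KDM2B). The replicate block within fraction gave in MCF10A 1 (T) and 2 (P, KDM3A and KDM4B) for H, 2 for NPP in P (KDM3A and KDM5B), 6 for HPP in T and 3 for HPP against H in P (KDM2B, KDM3A and KDM5B), and in MDA-MB-231 2 for NPP in T and 0 for P against T. A culture block left Te at 0 calls.

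Leaving out 1 library at a time gave, in MCF10A, 0 to 1 calls for H in T and in P and for NPP in P, 0 to 5 for HPP in T (0 without N T replicate 2), 1 to 6 for HPP in P (1 without HPP P replicate 2), 0 to 1 for HPP against H in T and 0 to 2 in P. In MDA-MB-231 it gave 1 to 2 for H in T and P, 2 to 4 for HPP in T (2 without N T or HPP T replicate 2), 2 to 5 for HPP in P (2 without HPP P replicate 1), 0 to 2 for NPP in P, 0 to 2 for HPP against H in T, 0 to 1 in P, and 0 for P against T; for the joint fit it gave 0 to 1 for HPP in T. With 1 library left in a group, that library is assumed to vary like the others. Each member had at least 60 counts in every library.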
